A study of Mus musculus with 19 samples.

Results

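Kainate receptors are one of the classes of ionotropic glutamate receptor, and their 5 subunit genes (Grik1 to Grik5) and both genes of their auxiliary subunits (Neto1 and Neto2) were followed here in wild-type mouse hippocampal slices. The 7 genes were taken by symbol from the RNA and ribosome profiling tables, which list 20436 genes each, and all 7 had enough counts to be tested in both. Slices of male mice, 28 to 42 days old by the sample labels, received DHPG for 5 min at 100 µM, an agonist of group I metabotropic glutamate receptors, or vehicle (artificial cerebrospinal fluid, here called basal). All slices then received cycloheximide at 100 µg/ml, which stops elongating ribosomes. Slices of 6 mice were pooled for a replicate, so the spread between replicates is a spread between pools. CA3 was left in the slices of these replicates, and no region or cell type was sorted, so that fewer cells of a type and less RNA per cell cannot be told apart. RNA-seq gave 4 basal and 5 DHPG libraries (DHPG replicate 5 had no basal partner), and ribosome profiling gave 5 basal and 5 DHPG libraries of ribosome-protected fragments (RPFs), the pieces of mRNA covered by a ribosome.

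A kainate receptor is a channel of 4 subunits. GluK1, GluK2 and GluK3, made from Grik1, Grik2 and Grik3, can form channels on their own, whereas GluK4 and GluK5, made from Grik4 and Grik5, bind agonist with high affinity and work only together with one of the former. Neto1 and Neto2 are membrane proteins with CUB domains that bind the receptors, slow their gating and change their affinity. In the hippocampus kainate receptors are best known at the mossy fibre synapse on CA3 pyramidal cells, on interneurons and at presynaptic terminals, and the Grik4 transcript is known as a mark of CA3.

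Library totals ran from 4870813 to 7793244 counts for RNA and from 5692064 to 22092434 for RPF. A member had between 127 and 4567 counts in an RNA library and between 82 and 2131 in an RPF library, so the precision of a single value is lowest for Grik1. Levels are given as CPM, counts scaled to library size after TMM normalization, and, for comparison between genes, as CPM per kb, with RNA over the length of the transcript and RPF over the coding sequence less the 30 nt at each end in which the authors did not count. Markers of CA1, CA3 and dentate cells, interneurons, oligodendrocytes and their precursors, astrocytes and microglia were all detected, with none of the markers present in the tables under 1 CPM on average. The 8 CA3 markers in the tables summed to 238 to 259 CPM in basal RNA and 225 to 245 in basal RPF. The sum over 10 thalamus markers was 122 to 163 CPM in basal RNA and 150.0 to 208 after DHPG, and it was higher after DHPG in 4 of 4 pairs.

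The 5 subunits are similar in sequence. The stretch around their longest shared exact run shows where a read could come from more than one of them. It lies in the coding sequence of the third transmembrane segment, which lines the pore. The following 60 bases are from GENCODE transcripts for mm10, each within a single exon and written 5′ to 3′ in the direction of the gene. Capitals mark bases inside an exact run of at least 26 bases, the length of the shortest RPFs recovered, that another member also has. Grik1 and Grik2 have no such run in this stretch.
Grik1: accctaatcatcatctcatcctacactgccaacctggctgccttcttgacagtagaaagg
Grik2: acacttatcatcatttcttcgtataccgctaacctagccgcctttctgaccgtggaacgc
Grik3: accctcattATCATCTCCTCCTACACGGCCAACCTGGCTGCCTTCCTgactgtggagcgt
Grik4: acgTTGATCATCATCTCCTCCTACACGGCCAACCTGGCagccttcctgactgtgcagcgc
Grik5: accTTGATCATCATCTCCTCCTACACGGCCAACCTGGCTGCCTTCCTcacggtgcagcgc

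The stretch lies at chr16:87935994-87936053 in exon 13 of Grik1 (minus strand), at chr10:49240675-49240734 in exon 14 of Grik2 (minus strand), at chr4:125694024-125694083 in exon 13 of Grik3 (plus strand), at chr9:42543854-42543913 in exon 17 of Grik4 (minus strand) and at chr7:25015904-25015963 in exon 16 of Grik5 (minus strand). Of the 60 bases, Grik4 and Grik5 each have 53 in common with Grik3, Grik1 has 50 and Grik2 has 45. Grik3 and Grik5 share a run of 38 bases and Grik4 and Grik5 one of 35, which was also the length of the longest run shared by Grik1 and Grik2. That run is shown because it is the longest place outside the segment where a whole RPF could come from either of 2 members. It lies before the transmembrane segment, at chr16:87940578-87940631 in exon 12 of Grik1 and at chr10:49244365-49244418 in exon 13 of Grik2, where 50 of 54 bases are the same.
Grik1: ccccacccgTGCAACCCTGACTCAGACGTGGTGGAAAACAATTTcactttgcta
Grik2: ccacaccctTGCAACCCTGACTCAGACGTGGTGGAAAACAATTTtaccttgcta

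Shared runs of this length covered 2.32% of the coding sequence of Grik3, 2.17% of Grik1, 1.5% of Grik5, 1.28% of Grik2 and 1.22% of Grik4. Neto1 and Neto2 shared no run of 26 bases with each other or with a subunit. The authors kept reads that mapped to one place. Exact runs of this length were thus a small part of each coding sequence. Whether reads with mismatches were counted for another member was not tested. By the mm10 annotation the genes lie on chromosome 16 from 87895900 to 88290265 (Grik1), chromosome 10 from 49094833 to 49788766 (Grik2), chromosome 4 from 125490700 to 125714173 (Grik3), chromosome 9 from 42518135 to 42944493 (Grik4), chromosome 7 from 25009849 to 25072346 (Grik5), chromosome 18 from 86394952 to 86506718 (Neto1) and chromosome 8 from 85636588 to 85700924 (Neto2). They overlap only small or non-coding genes, and the exon overlaps are 59 bases in Grik4, 219 bases of an antisense gene in Neto1 and 20 bases in Neto2. Whether counting used strand was not stated.

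Basal RNA per kb was dominated by Grik5. It had 137 ± 42.0 CPM per kb of transcript (SD, n = 4), 9.46 times the next member by these lengths. Its lead depends on the length used: it was 3.63 times over Grik2 with the shorter RefSeq transcript of Grik2, and 2.28 times over Neto1 when RNA was divided by coding length. Neto1 followed with 14.5 ± 0.661, Neto2 with 14.3 ± 2.02, Grik4 with 12.9 ± 2.44 and Grik2 with 12.5 ± 0.651, and the ranges of neighbours in this order overlapped. Grik1 with 8.02 ± 0.687 and Grik3 with 7.67 ± 1.05 were lowest and also overlapped, and Grik1 was below Grik2 in 4 of 4 replicates. Among all genes tested, the RNA of Grik5 by CPM lay above 97.9% and that of Grik1 above 50.3%. The place of Grik2 depends on the transcript: over its shorter RefSeq transcript of 3083 bases, in place of 9427, its level was 38.4 ± 1.99 CPM per kb, which would put it directly after Grik5.

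RPFs gave a different order. Neto1 had the highest level, 38.3 ± 4.55 CPM per kb of coding sequence (SD, n = 5), followed by Grik2 with 33.1 ± 3.63 and Neto2 with 27.1 ± 4.67. Their ranges overlapped, although each was above the next in 5 of 5 replicates. Grik5 came next with 16.2 ± 1.05, below Neto2 in every replicate and without overlap. Grik3 with 13.7 ± 1.34 overlapped with Grik5 above it and with Grik4 (12.7 ± 1.32) below it, and each order held in 4 of 5 replicates. Grik1 was lowest with 4.52 ± 0.305, and Grik4 was 2.82 times higher without overlap. The order of the 7 genes was the same in the DHPG libraries.

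**Figure D1:**
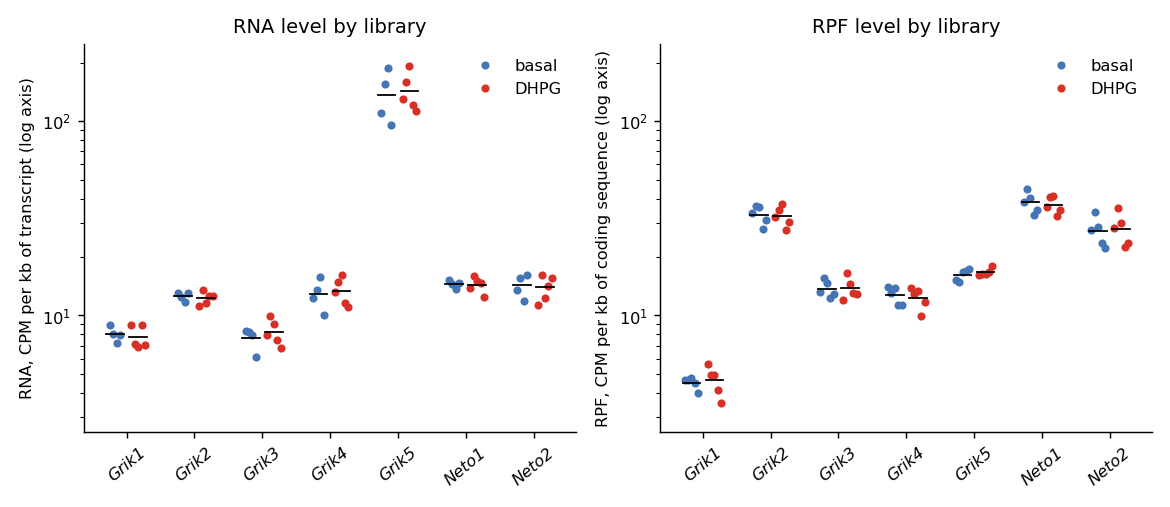
Level of each gene by library on a log axis, RNA per kb of transcript (left) and RPF per kb of coding sequence (right). Points are libraries in order of replicate number (basal blue, DHPG red) and lines are group means; Grik5 lies between 96.1 and 193 CPM per kb in RNA, apart from the other 6 genes, and between 14.9 and 17.9 in RPF, among them.

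As a share of the summed level of the 5 subunits, Grik5 took 76.1 ± 4.72% of basal RNA (SD, n = 4) and 20.3 ± 2.42% of basal RPFs (n = 5). Grik2 took 7.42 ± 2.14% of the RNA and 41.1 ± 1.81% of the RPFs. Its RNA share was 19.6%, and that of Grik5 66.2%, when the shorter Grik2 transcript was used. The high-affinity subunits Grik4 and Grik5 together made up 83.4 ± 4.21% of the RNA and 36.2 ± 2.12% of the RPFs, so Grik1 to Grik3 held most of the RPFs. Grik1, the subunit known from interneurons, took 5.64 ± 0.355% of the RPFs, Grik3 17.1 ± 0.753% and Grik4 15.8 ± 0.937%. After DHPG the RPF share was 40.5 ± 1.84% for Grik2 and between 18.8 and 23.5% for Grik5. Between the auxiliary subunits, Neto1 exceeded Neto2 by 1.42 ± 0.0983 times in basal RPFs, in 5 of 5 replicates, and by 1.03 ± 0.129 times in basal RNA, where 2 of 4 replicates had more Neto1. RPFs of both Neto genes per kb summed to 0.814 ± 0.0696 of those of the 5 subunits.

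**Figure D2:**
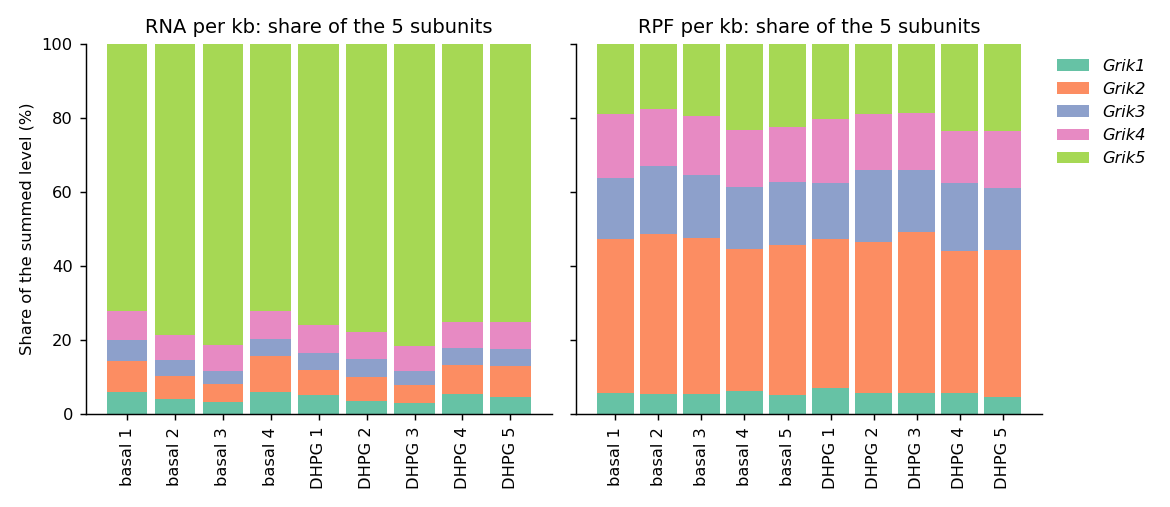
Share of each kainate receptor subunit in the summed level per kb, by library (group and replicate number), for RNA (left) and RPF (right). Grik5 fills 72.0 to 81.4% of the basal RNA bars and 17.5 to 23.2% of the basal RPF bars, and Grik2 is the tallest part of every RPF bar.

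Beside the other ionotropic receptors, kainate receptor genes had few ribosomes. The 4 AMPA receptor genes (Gria1 to Gria4) summed to 12.0 ± 0.644 times the RPFs per kb of the 5 Grik genes in basal slices, and the 7 NMDA receptor genes to 7.33 ± 0.234 times. In RNA per kb the same sums were 1.68 ± 0.647 and 2.43 ± 0.288 times those of the Grik genes, of which Grik5 supplied most. RNA was divided by transcript length and RPF by coding length, so the RNA values depend on the transcript chosen for each gene.

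The ratio of RPF to RNA CPM within a replicate, used here as the translational efficiency (TE) of a gene, was lowest for Grik5. For its hippocampal TE the paper divided by length and mapped both kinds of read to coding sequence. RNA was counted here over whole transcripts, so the 2 measures differ. The log2 ratio of Grik5 was -3.22, -3.77, -3.87 and -2.89 in basal replicates 1 to 4 (mean -3.44, SD 0.46), and from -3.95 to -3.04 in the 5 DHPG replicates. Of 12691 genes tested in both kinds of library, 0.244% had a lower basal mean, against a median of -0.18 and a 5th percentile of -1.92 over all genes. Per kb the log2 ratio of Grik5 was -3.05, and 0.147% of 12226 genes were lower. In every basal and DHPG replicate it lay below the ratio of each other member.

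The other 6 members had ratios below the median of all genes but inside its 5th to 95th percentile. Grik2 was highest with -0.41 (SD 0.24, n = 4; 41.2% of genes lower), followed by Neto2 with -0.82 (SD 0.32), Grik3 with -0.87 (SD 0.15), Neto1 with -1.01 (SD 0.21), Grik4 with -1.04 (SD 0.18) and Grik1 with -1.20 (SD 0.14; 16.6% of genes lower). Grik2 was above Neto2 in 4 of 4 replicates. From Neto2 down to Grik1, neighbours overlapped and kept their order in 2 or 3 of 4 replicates. The differences between neighbours thus did not exceed the spread between replicates. Grik3 and Grik1, which are not neighbours, kept their order in every basal replicate. Divided by length, the long untranslated regions of some transcripts count: Neto1 (1.42) and Grik2 (1.41) were then highest, at 64.8% and 64.5% of genes lower, Neto2 followed with 0.99 and Grik3 with 0.86, near the median of 0.86, and Grik4 with 0.03 and Grik1 with -0.78 were below it. With the shorter transcript the value of Grik2 was -0.20, so its rank is not settled by these counts.

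**Figure D3:**
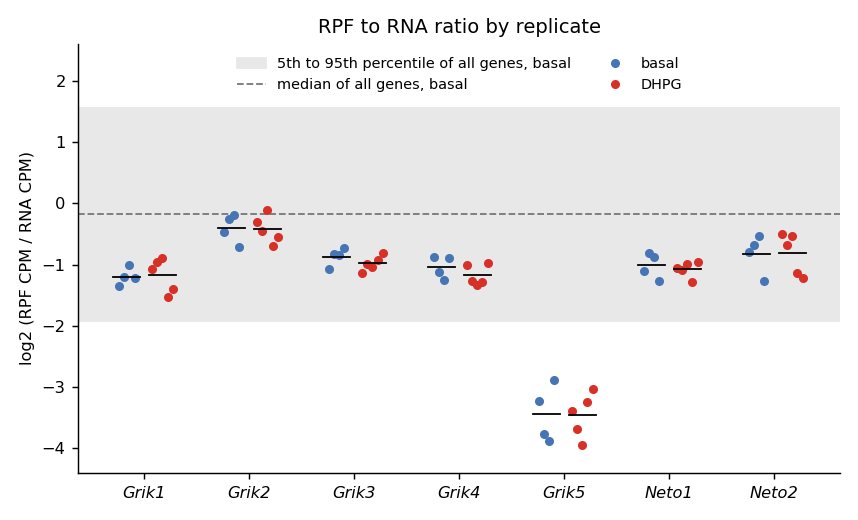
Log2 ratio of RPF to RNA CPM for each gene, one point per replicate (basal blue, DHPG red, in order of replicate number), with group means as lines. The grey band spans -1.92 to 1.55, the 5th to 95th percentile of all genes in basal slices, and the dashed line their median of -0.18; all 9 values of Grik5 lie under the band and those of the other genes within it.

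Among the other ionotropic glutamate receptor genes, Grin2c, an NMDA receptor subunit known from cerebellar granule cells and astrocytes, came nearest with a basal log2 ratio of -2.84 (SD 0.45, n = 4; 0.851% of genes lower), and the remaining 11 that were tested ran from -1.26 (Grin3a) to 1.23 (Gria3). Of the 18 genes for proteins described as binding or modifying kainate receptors or placing them at synapses, the lowest were Klhl17, which encodes the actin-binding adaptor actinfilin, with -1.67 and Dlg4, which encodes PSD-95, with -1.48. The synaptic organisers C1ql2 and C1ql3, known to recruit kainate receptors at mossy fibre synapses, had 0.61 (SD 0.18) and 1.25 (SD 0.12).

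Coding GC content differed among the members, from 42.5% in Neto2 and 45.3% in Grik2 to 61.6% in Grik5, and across genes the basal ratio fell with GC content (Pearson r = -0.30 over 12226 genes, which are not independent replicates). Genes within 1 percentage point of Grik5 had a median log2 ratio of -0.71, and 2 of these 610 genes were below Grik5. For the other members the share of genes of like GC content with a lower ratio was 10.8% for Grik1, 11.4% for Neto2, 12.1% for Neto1, 23.2% for Grik4, 27.7% for Grik2 and 29.9% for Grik3.

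The RNA of Grik5 varied more between replicates than its RPFs. In basal slices its RNA was 413, 586, 705 and 362 CPM in replicates 1 to 4, and after DHPG it was 487, 602, 727, 458 and 425 CPM in replicates 1 to 5. Replicates 2 and 3 were high under both treatments. The RNA of the 610 genes of like GC content moved with it: their median deviation from the mean over libraries ran from -0.28 (basal replicate 4) to 0.26 (DHPG replicate 3) on the log2 scale, and that of Grik5 from -0.51 to 0.50 in the same 2 libraries (Pearson r = 0.96 over 9 RNA libraries, which share replicate number). Replicates 2 and 3 were also the highest basal ones, and replicate 4 the lowest, in the summed RNA of excitatory neuron markers (3793, 4855, 5519 and 3258 CPM), of CA1 markers (461, 649, 646 and 392), of oligodendrocyte markers (3413, 4381, 4385 and 2010), of their precursors (172, 195, 174 and 126) and of microglia (394, 433, 476 and 320). The sums for astrocytes (1462 to 1566), interneurons (659 to 715) and CA3 (238 to 259) moved over narrower ranges, and those for dentate cells and thalamus were highest in replicate 4. The part of GC content or of cell content in the spread of Grik5 RNA was not tested. RPFs of Grik5 were 44.1, 42.8, 48.0, 48.7 and 49.7 CPM in basal slices and 46.5, 46.9, 47.0, 48.3 and 51.6 CPM after DHPG, a range of 1.13 times between replicate means. Their deviations and the median of the 610 genes of like GC content had a Pearson r of 0.64 over 10 RPF libraries, which share replicate number.

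**Figure D4:**
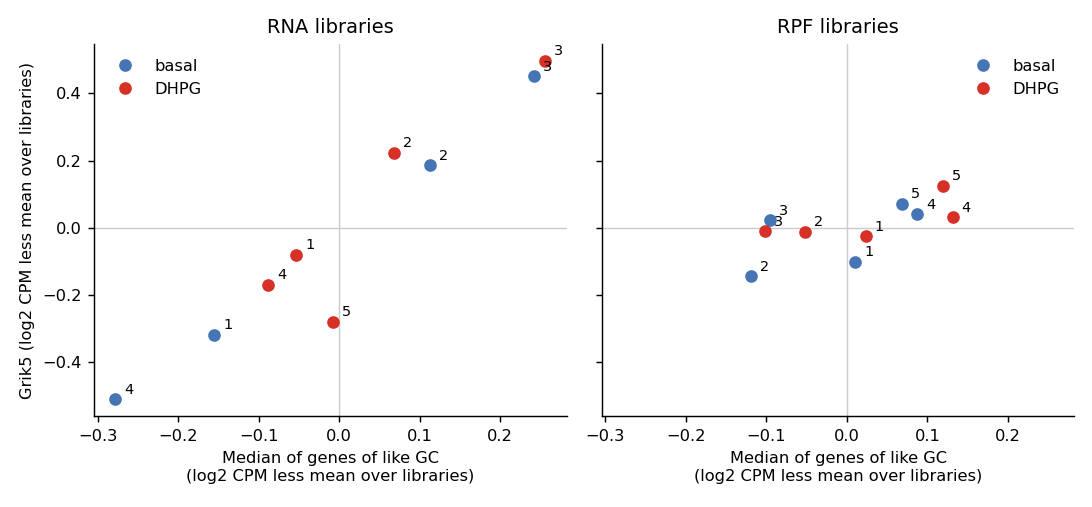
Log2 CPM of Grik5 less its mean over libraries against the median of the same quantity over 610 genes whose coding GC content is within 1 percentage point, for 9 RNA libraries (left) and 10 RPF libraries (right), numbered by replicate. In RNA both range widely and together, from basal replicate 4 to DHPG replicate 3. In RPF the points of Grik5 stay between -0.14 and 0.13 and the medians between -0.12 and 0.13 (Pearson r = 0.64).

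DHPG against basal in wild-type slices asked which RNAs and RPFs change within 5 min of group I metabotropic receptor activation. None of the 7 genes passed the test in RNA, in RPF or in the ratio. Over all genes, the quasi-likelihood test of edgeR, blocked by replicate number, called 0.00773% of 12935 in RNA (adjusted p under 0.01), 0.22% of 13208 in RPF and 0% of 12691 in the ratio (adjusted p under 0.05 in both), so no call among 7 genes is also what the background gives. At an unadjusted p under 0.05, 1 member (Grik5) was found in RNA, 0 in RPF and 0 in the ratio, beside 8.02%, 10.8% and 6.69% of all genes. The adjusted p of the members in edgeR ran from 0.573 to 0.997 in RNA, from 0.772 to 0.946 in RPF and from 0.749 to 0.983 in the ratio. The basal and DHPG ranges of CPM overlapped for every member in both assays.

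Among the subunits that form channels on their own, Grik1 RPFs were 12.7, 12.8, 13.1, 12.4 and 10.98 CPM in basal replicates 1 to 5 and 15.5, 13.6, 13.6, 11.3 and 9.72 CPM after DHPG. The DHPG values spread more widely, on both sides of the basal ones, and the log2 fold change was 0.02 (95% interval -0.14 to 0.18). Its RNA was 32.5, 29.5, 26.4 and 28.9 CPM in basal slices and 32.6, 26.2, 25.2, 32.6 and 25.7 CPM after DHPG (log2 fold change -0.002, -0.20 to 0.20). With the fewest counts of the 7 genes, Grik1 also had the widest intervals.

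Grik2 RPFs were 89.6, 97.5, 96.8, 74.7 and 82.7 CPM in basal slices and 85.8, 93.6, 101, 73.2 and 80.8 CPM after DHPG, lower in 4 of 5 pairs and higher in 1. The replicates differed more than the treatments: replicate 4 was lowest under both, and the log2 fold change was -0.02 (-0.09 to 0.06), which bounds a change in RPFs at about 0.937 to 1.04 times. The RNA of Grik2 was 124, 117, 110.2 and 123 CPM in basal slices and 105, 128, 109, 119 and 119 CPM after DHPG (log2 fold change -0.04, -0.20 to 0.11).

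Grik3 RNA was 74.8, 74.2, 71.3 and 54.9 CPM in basal slices and 71.5, 88.8, 80.8, 67.0 and 61.4 CPM after DHPG. It was higher in 3 of 4 pairs, by 0.16 on the log2 scale (95% interval -0.0005 to 0.32). Its p was 0.0507, and 0.625 after adjustment in edgeR. With each replicate left out, the RNA value ran from 0.118 (without replicate 4) to 0.235 (without replicate 1). Grik3 RPFs, at 35.5, 42.0, 39.6, 33.2 and 35.0 CPM in basal slices and 32.6, 44.9, 39.5, 35.4 and 34.85 CPM after DHPG, had a log2 fold change of 0.02 (-0.08 to 0.12). The ratio was lower in 4 of 4 pairs, with a log2 difference of -0.14 (-0.31 to 0.04; adjusted p = 0.794).

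Of the high-affinity subunits, Grik4 RNA was 72.4, 79.9, 93.2 and 58.9 CPM in basal slices and 77.7, 87.2, 94.8, 68.3 and 65.2 CPM after DHPG, higher in 4 of 4 pairs but within the range of the replicates (log2 fold change 0.11, -0.04 to 0.27). Its RPFs were 39.3, 36.8, 39.1, 31.8 and 32.0 CPM in basal slices and 38.8, 36.4, 37.5, 27.99 and 33.2 CPM after DHPG (log2 fold change -0.04, -0.14 to 0.06). Replicates 4 and 5 were low in both groups. The Grik4 ratio was lower in 4 of 4 pairs, at -0.15 (-0.32 to 0.01). Its p was the smallest of any member in this test, 0.0666, and 0.749 after adjustment in edgeR. Without replicate 4 the ratio was -0.09 (standard error 0.09). The sum over CA3 markers, which leave out Grik4, was lower after DHPG in 4 of 4 RNA pairs, by 0.064 on average on the log2 scale, where Grik4 RNA was higher. In basal RPFs the sum over CA3 markers was 225, 235, 245, 235 and 232 CPM, so replicates 4 and 5 lay within the range of the others. The part of CA3 content in the Grik4 values was not tested.

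Grik5 RNA, given by library above, was higher after DHPG in 4 of 4 pairs, by 0.16 on the log2 scale (0.02 to 0.30). Its p was 0.0226, and 0.573 after adjustment over all genes in edgeR, so it did not pass the test. Without replicate 4 the value was 0.10 (standard error 0.07). The 610 genes of like GC content had a median log2 fold change of 0.07 in RNA, and with the GC trend of each library removed the value of Grik5 was 0.11 (adjusted p = 0.713). Marker sums in RNA that were also higher in 4 of 4 pairs were those of thalamus (by 0.36 on average on the log2 scale), oligodendrocytes (0.18), oligodendrocyte precursors (0.079) and dentate cells (0.078), and their part in the Grik5 value was not tested. The log2 fold change of Grik5 was 0.04 in RPF (-0.05 to 0.13) and -0.12 in the ratio (-0.28 to 0.03), which was -0.05 without replicate 4 and -0.19 without replicate 2.

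Of the auxiliary subunits, Neto1 had RPFs of 59.1, 68.9, 62.3, 51.0 and 54.2 CPM in basal slices and of 55.6, 62.9, 63.2, 50.2 and 54.03 CPM after DHPG, lower in 4 of 5 pairs, with a log2 fold change of -0.04 (-0.13 to 0.04). Its RNA was 127, 121, 114 and 123 CPM in basal slices and 115.5, 134, 125, 123 and 104 CPM after DHPG (log2 fold change 0.03, -0.12 to 0.18).

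Neto2 RPFs were 43.9, 54.6, 45.7, 37.7 and 35.6 CPM in basal slices and 45.05, 57.1, 48.0, 36.2 and 37.7 CPM after DHPG, higher in 4 of 5 pairs, with a log2 fold change of 0.05 (-0.05 to 0.14). Replicate 2 was highest under both treatments. Neto2 RNA, at 75.8, 87.6, 66.4 and 91.2 CPM in basal slices and 63.6, 91.1, 69.2, 79.5 and 87.9 CPM after DHPG, had a log2 fold change of -0.09 (-0.25 to 0.07). The ratio of Neto2 was higher in 4 of 4 pairs, by 0.29, 0.0090, 0.0089 and 0.14 in replicates 1 to 4, and the fitted difference was 0.14 (-0.03 to 0.31; adjusted p = 0.786 in edgeR). Without replicate 1 it was 0.08.

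**Figure D5:**
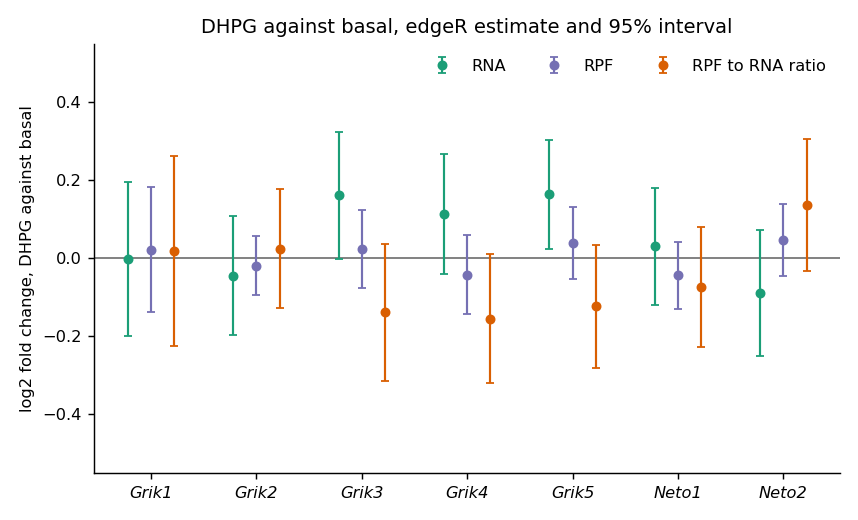
Log2 fold change of DHPG against basal with its 95% interval (bars) from edgeR for RNA, RPF and the RPF to RNA ratio of each gene. RPF values lie between -0.04 and 0.05, RNA values between -0.09 and 0.16 and ratios between -0.15 and 0.14; of the 21 intervals, that of Grik5 RNA (0.02 to 0.30) leaves out 0.

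The other ionotropic glutamate receptor genes and the kainate receptor partners gave no calls either. Of 13 receptor genes, 12 were tested (Grin3b was too low), with 7 higher and 5 lower in RNA, 11 higher and 1 lower in RPF, and 7 higher and 5 lower in the ratio. Their median log2 fold change in RPF was 0.04, beside 0.02 for the 7 members and 0.00 for all genes. The smallest p in RPF belonged to Grin1, the obligatory NMDA receptor subunit (log2 fold change 0.07, standard error 0.03, adjusted p = 0.349 in edgeR), and Gria3 (0.06, adjusted p = 0.462). In RNA they were those of Grin2c (0.13, adjusted p = 0.658) and Grin2d (0.16, adjusted p = 0.668), and in the ratio those of Gria2 (0.13, adjusted p = 0.736) and Gria4 (0.16, adjusted p = 0.751).

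All 18 partner genes were tested, and 9 were higher in RNA, 8 in RPF and 7 in the ratio, with a median log2 fold change of -0.01 in RPF and -0.03 in the ratio. Dlg4, which encodes a scaffold that binds the tails of kainate receptors, had the smallest p in RNA (log2 fold change 0.15, adjusted p = 0.578 in edgeR) and in the ratio (-0.15, adjusted p = 0.694). In RPF the smallest were those of Dlg3 (-0.11, adjusted p = 0.158) and Dlg1 (-0.09, adjusted p = 0.403), which encode the scaffolds SAP102 and SAP97.

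Over the 10 RPF libraries most of the spread of each member lay between replicate numbers, from 75.7% of the variance in Grik5 to 98.0% in Neto2, and the highest replicate mean exceeded the lowest by 1.13 times in Grik5, 1.27 times in Grik3, 1.30 times in Neto1, 1.31 times in Grik4, 1.33 times in Grik2, 1.35 times in Grik1 and 1.52 times in Neto2. Among genes tested in RPF, 13.7% had a smaller such fold than Grik5. For the other members this share ran from 54.6% (Grik3) to 87.0% (Neto2). The shares of variance were not set beside those of all genes. Grik2 and Neto1 followed each other most closely (Pearson r = 0.95 over log2 CPM of 10 libraries), then Neto1 and Neto2 (r = 0.89). Grik5 ran against all other members, with r from -0.40 (Grik3) to -0.69 (Neto2). These libraries share replicate number in pairs, and many other genes followed the same replicates.

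The genes most like each member over these libraries were Usp47, Cacna2d3 and Mapk8 for Grik2 (r = 0.98 to 0.99), Eif3j1, Clptm1l and Trim33 for Neto1 (0.97 to 0.98), and P4ha1, Lphn3 and Hspa5 for Neto2 (0.98 to 0.99). For Grik3 they were Kcnh7, Fsd1l and Aftph (0.95 to 0.97), for Grik4 Plod2, Rwdd1 and Bzw1 (0.96 to 0.97), for Grik5 Nudt22, Inpp1 and Sufu (0.92 to 0.95), and for Grik1, with the lowest counts, Gabpb1, Dnajc15 and Orc4 (0.91 to 0.94).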

How the data were processed

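The authors trimmed reads with Cutadapt, discarded reads from rRNA and tRNA, mapped what remained to mm10 with TopHat2, kept uniquely mapped reads without duplicates (molecular identifiers) and deposited RSEM expected counts per gene, rounded to whole numbers, for RNA on whole transcripts and for RPF on RefSeq coding sequences without 30 nt at each end. Intervals and tests treat these as counts. The same tables have 12 columns, of replicates 6 to 8, that match none of the samples and were left out.

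Counts were analysed in R 4.3.3 with edgeR 4.0.16: TMM, filterByExpr, replicate number as a block, quasi-likelihood test, with p-values adjusted by Benjamini-Hochberg across every gene tested, called at 0.01 for RNA and at 0.05 for RPF. TE was tested in one model, by the treatment-by-library-type interaction, over 19 libraries, at 0.05. Ratios used log2 CPM with a prior count of 2. The RNA block fit takes no treatment effect from DHPG replicate 5. Lengths, exons and GC content came from GENCODE M21, one RefSeq-linked transcript per gene (that with the longest coding sequence), for 95.4% of genes. Fragment counts of RNA with different lengths were divided by transcript length only, so a gene's RNA level per kb depends on the transcript chosen.

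The study treats same-numbered libraries as a batch. Their deviations from the group means had correlations of 0.31 to 0.74 in RNA and 0.26 to 0.52 in RPF, so the numbers were taken to pair them, although basal RNA replicate 2 correlated more with another number (0.47) than with its own (0.31). No 2 libraries held the same values.

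The members, gene lists and tests were chosen with earlier results of these data known. All members were named, with the genes of smallest p from each of 2 lists (other ionotropic receptors, receptor partners) and the 3 genes most like each member. Alternatives were DESeq2's size factors, no replicate block, no filter, a minimum of 10 counts per library, DESeq2 1.42.0 with the block, ComBat (sva 3.50.0) followed by DESeq2 as in the study, other thresholds, limma 3.58.1 for TE, each replicate left out, other lengths and prior counts, and, added after the data were seen, removal of each library's GC trend (loess, span 0.5). The steps were tested on simulated data. Amino acid sequences were not used here, and some genes of these lists are not reported here by name.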

Additional observations from a re-analysis of the deposited data

Results flagged for a closer look

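No library stood apart from its group for any of the 7 genes: in 42 groups of 4 or 5 values (RNA CPM, RPF CPM and log2 ratio, basal and DHPG), no gap between the highest or lowest value and the nearest of the others passed Dixon's 95% limit, where chance alone would give about 2.1.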

How the results depend on the processing

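No member was called in RNA, RPF or the ratio under any alternative run, including each replicate left out (0 to 0 calls). Without the replicate block 0 members were called in each comparison, and the log2 fold change of Neto1 RNA was -0.0124 in place of 0.03. That fit also draws on the RNA of DHPG replicate 5, which has no basal partner. In RNA and the ratio, the model and the libraries used therefore changed together. The values of Grik5 also shrank without the block, to 0.063 in RNA (standard error 0.209) and -0.024 in the ratio, as did those of Grik3 (0.10 in RNA, -0.09 in the ratio), Grik4 (0.047 and -0.09) and Neto2 (0.077 in the ratio). With ComBat followed by DESeq2, the adjusted p of Grik5 RNA was 0.0262, under 0.05 but not under 0.01. DESeq2 with the block gave no adjusted p for the 7 members in RPF, and ComBat gave none for 1 in RNA and 4 in RPF. Calls over all genes moved by over 1.5 times: in RNA from 1 to 100 with ComBat, 22 without replicate 2, 7 without the filter, 2 without replicate 1 or 4, and 0 without replicate 3, without the block, with DESeq2 or with at least 10 counts. In RPF they moved from 29 to 427 with ComBat, 96 without the filter, 71, 50, 10 and 3 without replicates 3, 5, 1 and 2, 8 at 0.01 and 0 without the block, and in the ratio from 0 to 8 without replicate 2, 3 without the filter and 1 without replicate 1. The cause was not tested.

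Signs turned for values near 0 when each replicate was left out: the log2 fold change then ran from -0.071 (without replicate 4) to 0.044 (without replicate 2) for Grik1 RNA, from -0.098 (2) to 0.012 (1) for Grik2 RNA, from -0.0038 (2) to 0.082 (1) for Neto1 RNA, from -0.0150 (1) to 0.062 (5) for Grik1 RPF, from -0.0025 (2) to 0.042 (1) for Grik3 RPF, from -0.047 (2) to 0.119 (4) for the Grik1 ratio and from -0.031 (1) to 0.086 (2) for the Grik2 ratio. With the GC trend of each library removed, Grik1 and Grik2 were at 0.043 and 0.0055 in RNA and -0.0089 and -0.0001 in the ratio, and Grik2 was at 0.0075 in RPF. RNA over coding length changed the order and the levels: Grik5 had 179, Neto1 78.6, Neto2 50.1, Grik2 44.3, Grik4 27.1, Grik3 25.5 and Grik1 10.7 CPM per kb, and the lead of Grik5 fell from 9.46 to 2.28 times. The 49 other values of the basal ratio and 77 of 84 of the levels moved by less than 1 SD. Depth limits Grik1 most.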
